A study of Mus musculus with 30 samples.

Results

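Pressure overload was compared with sham surgery across all hearts of the AAV9 cohort, that is 14 of the 30 hearts of the series. Members were the 7 hearts labelled TAC (transverse aortic constriction: the aortic arch is clipped, and the left ventricle then pumps against a higher pressure) and the 7 labelled sham, whatever had been injected. PBS_sham and PBS_TAC (3 hearts each) came from C57Bl/6 mice given saline, and AAV_sham and AAV_TAC (4 each) from C57Bl/6 mice given an AAV9 vector, which the series description names as carrying Cpt1a behind the cardiac troponin T promoter (AAV9.cTNTN.Cpt1a). That promoter is active in heart muscle cells. All hearts were taken 8 weeks after surgery and their poly(A) RNA was sequenced. The clips were 0.016 or 0.018 inch and are not assigned to mice, and the age of the mice and the hour of collection are not given in the sources used here. The injection was kept as a term in the model, so that each TAC heart was in effect set against sham hearts with the same injection. The question is which changes the overloaded hearts of the cohort share; the vector's own effect is a separate comparison. Saline and vector hearts enter together, so a mean over both is not the response of either alone.

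A heart under sustained pressure thickens its wall by enlarging its muscle cells. As background, such hearts are known for switching on genes of the fetal heart, such as skeletal muscle alpha-actin and the slow myosin heavy chain, for stretch-regulated proteins of the Z-disc and intercalated disc, and for fibroblasts that lay down collagen and other matrix. Heat shock proteins are chaperones that refold damaged proteins. Their genes carry heat shock elements, inverted repeats of GAA bound by the factor HSF1, and respond within minutes to hours to heat, lack of oxygen and unfolded protein.

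Total counts ran from 16299695 to 22070373 per library over the 14 hearts, and the TAC and sham ranges overlapped. The labels number the hearts of each group, and p-values set a difference against the spread between hearts that the model terms leave. Levels of single genes are in CPM, a gene's counts relative to its library's total, with TMM scaling in edgeR. Sums over a whole marker or gene list are relative to the library's total alone, without TMM scaling. Heart muscle markers were high in every library, with 6 marker transcripts summing to 29810 to 57920 CPM. The lowest sum was that of PBS_sham 3, which also had the highest sum of 7 smooth muscle and pericyte markers, 3380 CPM against 763.9 to 1032 CPM in TAC hearts. PBS_sham 2 had the highest sums of adipocyte (463 CPM) and atrial (6553 CPM) markers. The atrial gene Myl7 was above 100 CPM in 5 of 7 sham hearts and 2 of 7 TAC hearts. Its median was 210 CPM in sham and 0.288 CPM in TAC hearts, but it did not pass the test. The 6 atrial markers, which include Nppa, summed to a median of 790.3 CPM in sham and 860.2 CPM in TAC hearts with overlapping ranges. Taken singly, 4 of these 6 had a negative difference and 2 a positive one (median log2 −1.13). The sum did not follow Myl7. TAC hearts with Myl7 at 0.0585 to 0.371 CPM had sums of 207.7 to 945.7 CPM, while AAV_sham 4, with Myl7 at 0.606 CPM, had 18.16 CPM. The like medians of the sum therefore do not show like amounts of atrial tissue. Of the 13 marker lists, no member passed the test other than Acta1, which is listed there as a skeletal muscle marker. Among adipocyte markers 6 of 6 had a negative difference (median log2 −3.30), as did 5 of 5 mesothelial markers (median −2.86). In bulk tissue, fewer cells of a type and less RNA per cell cannot be told apart.

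Of 15745 genes tested, 137 (0.87%) differed between TAC and sham by edgeR's quasi-likelihood test at a Benjamini-Hochberg adjusted p under 0.05. The 78 that rose were 0.495% of all genes tested, and the 59 that fell were 0.375%. Of the 137, 60 differed by more than 2-fold, 36 of them higher and 24 lower, and 124 were protein coding. At an unadjusted p under 0.05, 2456 genes differed. The ranges of the 7 TAC and 7 sham hearts did not overlap in 75 of the 137, against 196 of all genes tested (1.24%). By direction these were 45 genes that rose, against 118 of all genes (0.749%), and 30 that fell, against 78 (0.495%). Over all 15745 genes, 7574 had a positive difference and 8171 a negative one, at a median log2 difference of −0.01. All 137 had the same sign in the saline and the vector hearts, which is no independent sign of agreement because the same libraries made the call. The number of calls hung on single libraries. It was 16 without AAV_TAC 1, 24 without AAV_TAC 2, 29 without PBS_TAC 1, 45 without PBS_TAC 3 and 91 without AAV_TAC 4. Leaving out AAV_sham 1, 2, 3 or 4 gave 45, 80, 41 and 56, and leaving out PBS_sham 1, 2 or 3 gave 260, 39 and 795. With log2 Myl7 as a term for atrial tissue, 3 genes were called (0.0191%), Aqp8, Dnaja1 and Noct. Under that term all 137 kept their sign, at a median of 0.905 times the reported log2 difference and none at less than 0.5 times.

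Genes of heart muscle contraction and stretch held the largest rise. Acta1 encodes skeletal muscle alpha-actin, the actin of the fetal heart and of adult skeletal muscle (ENSMUSG00000031972, chromosome 8, 123891769 to 123894751, minus strand, GRCm38). It was at 44.9 CPM in the lowest sham heart, 163 CPM in the median and 924 CPM in the highest, and at 1810, 3220 and 8680 CPM in TAC hearts. Every TAC heart was above every sham heart, and the sham hearts themselves spread widely. The difference was 3.86 on the log2 scale (SE 0.60, adjusted p 0.0152), or 14.6-fold. Without AAV_sham 2, the highest sham heart, it was 4.53. The other 4 skeletal muscle markers summed to 0.436 to 3.32 CPM in sham and 0.570 to 1.32 CPM in TAC hearts, so no other transcript of that list rose with Acta1. The Acta1 promoter is shown because it was the only window among the genes that rose that held a CArG box, the motif of serum response factor. RefSeq's bases −130 to −1 from its start, in GRCm38.p6 at chr8:123894776-123894905 on the minus strand, hold it at −73, in capitals:
Acta1: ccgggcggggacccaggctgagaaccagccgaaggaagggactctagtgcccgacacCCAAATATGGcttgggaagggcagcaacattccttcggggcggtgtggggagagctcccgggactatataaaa
The CArG box was searched on both strands and was present in 1.33% of all 14261 windows of tested genes, each from 250 bases before to 50 after a start. It was present in 1 of 71 windows (1.41%) of genes that rose and in 0 of 54 windows of genes that fell. The share among genes that rose was thus close to that among all genes.

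Myh7, the slow myosin heavy chain that mouse ventricles use before birth, was at 476, 522 and 785 CPM in the lowest, median and highest sham heart. In TAC hearts it was at 798, 1660 and 3000 CPM, and the ranges did not meet. It rose by 1.60 (log2, SE 0.27, adjusted p 0.0198). Exons of Mhrt and other transcripts lie opposite Myh7, and the strand setting of the counting is not given in the sources used here, so the value is uncertain. Myh6, the adult heart's main myosin heavy chain, was at 11200 to 34000 CPM in sham and 22600 to 29300 CPM in TAC hearts (log2 −0.04, adjusted p 0.935).

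Ankrd1, a cardiac ankyrin repeat protein at the titin spring, was at 551, 1250 and 2500 CPM in sham and 2430, 4990 and 7000 CPM in TAC hearts. The highest sham heart just passed the lowest TAC heart, and the difference was 1.73 (SE 0.30, adjusted p 0.0209). Its relative Ankrd2 rose by 2.26 (SE 0.42, adjusted p 0.0250) from a low level, 0.151 to 0.981 CPM in sham and 0.947 to 4.61 CPM in TAC hearts. Xirp2, an actin-binding protein of the intercalated disc, was at 192, 489 and 666 CPM in sham and 723, 1360 and 2430 CPM in TAC hearts, without overlap (log2 1.56, SE 0.27, adjusted p 0.0213). Gm13601 lies opposite Xirp2, which is uncertain for that reason. Acta1, Myh7, Ankrd1, Ankrd2 and Xirp2 were the 5 of 19 tested genes of the hypertrophy list that rose; none fell, and 18 of 19 had a positive difference (median 0.76). The natriuretic peptide Nppb, often the reference marker of a loaded ventricle, was at 17.2, 148 and 278 CPM in sham and 194, 339 and 800 CPM in TAC hearts and did not pass (log2 1.66, SE 0.50, adjusted p 0.130). Its relative Nppa, abundant in atria, ranged from 16.2 to 2590 CPM in sham hearts alone (log2 0.24, SE 0.84, adjusted p 0.902). Leaving out AAV_TAC 1 or AAV_TAC 2 ended the calls of Myh7, Ankrd1, Ankrd2 and Xirp2, with the sign kept. Other hearts mattered too. Over all 14 such fits the call was lost in 3 for Myh7, 4 for Ankrd1, 5 for Xirp2 and 8 for Ankrd2, whereas Acta1 was called in all 14. Of 28 sarcomere genes, 2 rose, Acta1 and Myh7, and the median was 0.12.

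**Figure D1:**
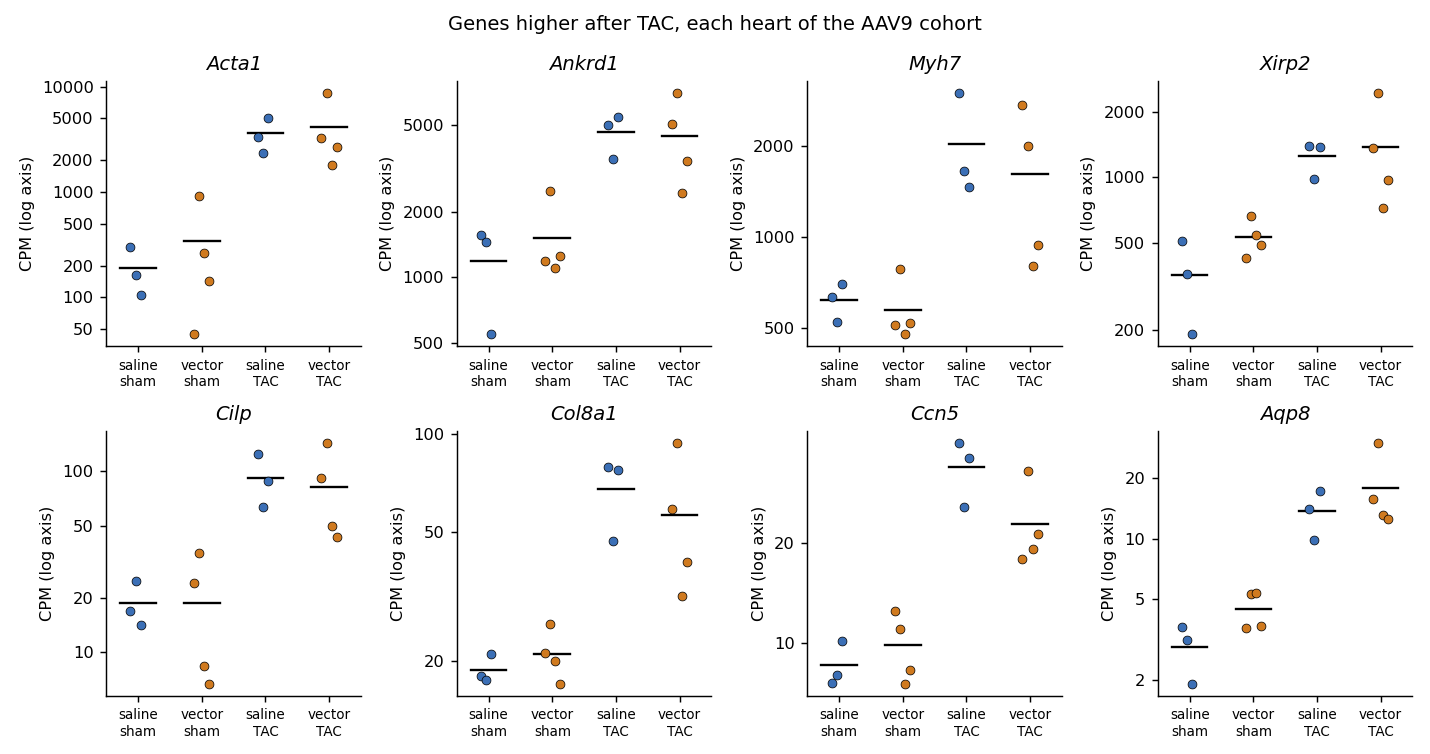
Level of 8 genes that rose with TAC, 1 point per heart on a log axis in CPM, for PBS_sham, PBS_TAC, AAV_sham and AAV_TAC; the bar is the group mean. In Acta1 the sham hearts reach 924 CPM and the TAC hearts start at 1810 CPM, while in Ankrd1 the groups meet at 2430 to 2500 CPM.

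Of 53 extracellular matrix genes, 3 rose and none fell, at a list median of 0.31. Cilp, a secreted matrix protein of cartilage and of cardiac fibroblasts, was at 6.72, 16.8 and 35.3 CPM in sham and 43.0, 88.2 and 143 CPM in TAC hearts (log2 2.21, SE 0.37, adjusted p 0.0198). Col8a1, a short-chain collagen, was at 17.0, 19.9 and 25.9 CPM in sham and 31.6, 58.6 and 94.0 CPM in TAC hearts (log2 1.60, SE 0.22, adjusted p 0.00828). Aspn, a small leucine-rich proteoglycan that binds collagen, rose less, from 23.4 to 30.9 CPM in sham to 33.7 to 57.9 CPM in TAC hearts (log2 0.67, SE 0.13, adjusted p 0.0332). In each of these genes the lowest TAC heart was above the highest sham heart. Aspn overlaps Cenpp on the opposite strand and is uncertain for that reason. These were the 3 calls. Postn, the periostin of activated fibroblasts, was at 26.8 to 134 CPM in sham and 63.2 to 230 CPM in TAC hearts and was not called (log2 1.18, SE 0.35, adjusted p 0.125). Thbs4, thrombospondin-4, missed the threshold narrowly (log2 1.94, SE 0.43, adjusted p 0.0515).

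Of 31 genes of the CCN and TGF-beta families, 2 rose and none fell, at a list median of −0.02. Ccn5, a secreted CCN protein without the C-terminal domain of its relatives, was at 7.54, 8.30 and 12.5 CPM in sham and 17.9, 25.7 and 40.0 CPM in TAC hearts. No heart crossed over, and the rise was 1.54 (SE 0.19, adjusted p 0.00510). Gdf6, a ligand of the BMP branch, rose by 1.47 (SE 0.28, adjusted p 0.0255) at 0.424 to 1.53 CPM in sham and 1.58 to 3.80 CPM in TAC hearts. Outside the lists, Cpxm2, a secreted carboxypeptidase-like protein, was at 13.1, 43.5 and 66.5 CPM in sham and 83.7, 108 and 188 CPM in TAC hearts, again without overlap (log2 1.49, SE 0.25, adjusted p 0.0198). Fibin, a secreted protein, rose by 1.04 (SE 0.22, adjusted p 0.0444). Cpxm2 has Gm15677 on the opposite strand and is uncertain. The integrin subunit Itga9 (0.67), the actin regulator Enah (0.83) and the membrane protein Emp1 (0.86) also rose. Col8a1 and Ccn5 were called whichever heart was left out. Cilp was not without PBS_TAC 1, AAV_TAC 1 or AAV_TAC 2, and Aspn and Gdf6 lost their calls in 9 and 8 of the 14 fits. Fibin lost its call in 11 of these fits, Enah and Emp1 in 8 each and Cpxm2 in 2. The 7 fibroblast markers summed to 641.2 to 2057 CPM in sham and 907.6 to 1559 CPM in TAC hearts, and none was called.

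Among ligands, receptors and enzymes of signalling, Edn3, the precursor of the vasoactive peptide endothelin-3, was at 0.319, 1.58 and 4.66 CPM in sham and 3.98, 10.3 and 23.9 CPM in TAC hearts. One sham heart, AAV_sham 2, lay above the lowest TAC heart, and the rise was 2.60 (SE 0.49, adjusted p 0.0250), or 6.07-fold. Ace, the angiotensin-converting enzyme, rose by 0.65 (SE 0.13, adjusted p 0.0295) and was the 1 call among 31 vessel and endothelial genes (median −0.07). Hbegf, an EGF receptor ligand, rose by 0.60 without overlap of the groups, from 13.5 to 19.8 CPM in sham to 19.9 to 30.2 CPM in TAC hearts. Ackr4, a receptor that clears chemokines, rose by 1.32 (SE 0.20, adjusted p 0.0143), at 2.22 to 3.99 CPM in sham and 4.73 to 12.9 CPM in TAC hearts. It lies opposite exons of Acad11 and is uncertain. It was the 1 call among 30 genes of inflammation and interferon, of which 23 had a negative difference (median −0.24). With a heart left out in turn, Edn3, Ace and Hbegf each lost their call in 8 of 14 fits and Ackr4 in none. Gm11651 lies opposite Ace, which is uncertain too.

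The rise with the smallest adjusted p belonged to Aqp8, a water channel that also passes hydrogen peroxide. It was at 1.92, 3.67 and 5.38 CPM in sham and 9.86, 14 and 29.7 CPM in TAC hearts (log2 2.08, SE 0.23, adjusted p 0.00191). Every TAC heart was above every sham heart, and the call was made whichever heart was left out. Nlrc3, a NOD-like receptor (log2 1.89), Cnksr1, a scaffold of Ras signalling (1.67), and the long noncoding RNA Gm13943 (1.68) were the other large rises of genes that reached 5 CPM on average after TAC or sham. Rrad, a small GTPase that restrains the L-type calcium channel, rose by 0.85 (SE 0.17, adjusted p 0.0388), while none of 28 calcium handling genes was called. The call was lost in 10 of 14 fits with a heart left out for Rrad, in 8 for Nlrc3, in 5 for Cnksr1 and in 2 for Gm13943. Rrad has Gm33023 on the opposite strand and is uncertain.

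Among genes with an average of 5 CPM or more in sham or TAC hearts, the largest falls were those of the HSP70 genes Hspa1b and Hspa1a. Hspa1a and Hspa1b encode the inducible HSP70 from adjacent genes on chromosome 17 (34969190 to 34972156 and 34956436 to 34959238, minus strand, GRCm38). Their promoters are printed with those of 3 other chaperone or co-chaperone genes that fell, with the matches of GAANNTTC or TTCNNGAA (a pair of heat shock element units) in capitals. Dnajb1, which also fell, is not shown because its windows held no match. Each stretch is from RefSeq on the gene's own strand in GRCm38.p6. It is at chr17:34972157-34972286 for Hspa1a and chr17:34959239-34959368 for Hspa1b (minus), chr4:40722318-40722467 for Dnaja1 (plus), chr5:149636337-149636416 for Hsph1 (minus) and chr9:18292207-18292286 for Chordc1 (plus):
Hspa1a: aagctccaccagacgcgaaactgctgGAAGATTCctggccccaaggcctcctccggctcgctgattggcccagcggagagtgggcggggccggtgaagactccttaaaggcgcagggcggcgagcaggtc
Hspa1b: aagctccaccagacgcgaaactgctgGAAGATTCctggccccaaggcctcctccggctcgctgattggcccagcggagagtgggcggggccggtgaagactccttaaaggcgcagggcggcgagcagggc
Dnaja1: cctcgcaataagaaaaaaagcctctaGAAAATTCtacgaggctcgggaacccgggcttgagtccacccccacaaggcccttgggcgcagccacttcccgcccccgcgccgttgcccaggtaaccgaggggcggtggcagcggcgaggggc
Hsph1: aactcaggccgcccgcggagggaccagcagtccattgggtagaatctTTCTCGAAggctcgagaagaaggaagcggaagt
Chordc1: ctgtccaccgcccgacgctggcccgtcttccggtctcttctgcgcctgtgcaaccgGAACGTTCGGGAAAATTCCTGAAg
The Hspa1a and Hspa1b windows share 296 of 300 bases, and their match starts at −104 in both. The transcripts are near-identical too, so the split of reads between both genes is uncertain, and Gm20481 lies opposite Hspa1a. In Dnaja1 the match is at −124 and in Hsph1 at −33. In Chordc1 overlapping copies begin at −4 and run past the start site. Over all 14261 windows, 11.9% held the 2-unit motif on either strand, against 18.5% of the 54 windows of genes that fell and 7.04% of the 71 windows of genes that rose. The 3-unit motif GAANNTTCNNGAA, which contains the 2-unit one, was in 0.498% of all windows and in 4 of the 54 (7.41%), from 3 genes, Hsph1, Chordc1 and A330023F24Rik. It was in 1 of the 71 windows of genes that rose (1.41%), that of Gm29773. Both motifs were chosen after the falls had been seen, and a match of letters is not a site.

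Hspa1b was at 53.7, 136 and 342 CPM in the lowest, median and highest sham heart and at 3.79, 22.7 and 37.1 CPM in TAC hearts. It fell by 3.04 on the log2 scale (SE 0.50, adjusted p 0.0196). Hspa1a was at 37.3, 106 and 219 CPM in sham and 3.16, 17.5 and 35.4 CPM in TAC hearts, and fell by 2.72 (SE 0.48, adjusted p 0.0219). The sum of the pair, which does not depend on how reads were split, was 91.0 to 560.8 CPM in sham and 6.94 to 72.5 CPM in TAC hearts, with no overlap. Dnaja1, a J-domain partner of HSP70, was at 204, 241 and 370 CPM in sham and 74.9, 117 and 155 CPM in TAC hearts and fell by 1.14 (SE 0.16, adjusted p 0.00828). Exons of Smu1 lie opposite Dnaja1, which makes it uncertain. Hsph1, the nucleotide exchange factor HSP105, fell by 1.14 (SE 0.23, adjusted p 0.0389), from 123 to 334 CPM in sham to 57.8 to 123 CPM in TAC hearts. Dnajb1, another J-domain partner, fell by 1.11 (SE 0.21, adjusted p 0.0291), with sham hearts at 55.9 to 153 CPM and TAC hearts at 27.8 to 63.0 CPM. Chordc1, a partner of HSP90, was at 53.1, 73.5 and 95 CPM in sham and 34.3, 43.4 and 46.5 CPM in TAC hearts (log2 −0.76, SE 0.12, adjusted p 0.0166). Apart from Dnajb1, the groups did not overlap in these genes.

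Few other chaperones were called. Of 79 tested genes of the chaperone families, a list made after these falls were seen, 5 fell and none rose, and 50 had a positive difference (median 0.07). In the stress response list 4 of 28 genes fell, Hspa1a, Hspa1b, Dnajb1 and Hsph1, and none rose (median −0.14). Hsf1, the gene of the factor that binds heat shock elements, was at 36.1 to 43.9 CPM in sham and 35.4 to 43.7 CPM in TAC hearts (log2 −0.01). The activity of its protein was not measured. With the atrial term Hspa1b was −3.99 and Hspa1a −3.56 (adjusted p 0.0700 for both), and without PBS_sham 2 and PBS_sham 3 they were −2.99 and −2.73, both called. The call of Hspa1b was lost without AAV_TAC 1 or AAV_TAC 2, and that of Hspa1a also without PBS_sham 2. Hsph1 lost its call in 11 and Dnajb1 in 10 of the 14 fits with a heart left out, while Dnaja1 and Chordc1 lost it in none.

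Of 23 immediate early genes, which respond to stimuli before new protein is made, 1 fell and none rose. It was Nr4a2, an orphan nuclear receptor at 2.25, 10.1 and 19.1 CPM in sham and 2, 3.31 and 4.29 CPM in TAC hearts (log2 −1.81, SE 0.35, adjusted p 0.0278). A negative difference was found in 20 of the 23 (median −0.44). The list summed to 876.2 to 2222 CPM in sham and 876.9 to 1432 CPM in TAC hearts, so the groups overlapped. Its part in the chaperone falls was not tested. Fosb, of the AP-1 family, had a difference of −1.86 and missed the threshold (SE 0.42, adjusted p 0.0555). Outside the lists, Sik1, a kinase induced by cyclic AMP, was at 67.9, 150 and 169 CPM in sham and 70.4, 81.9 and 87.1 CPM in TAC hearts (log2 −0.78, SE 0.15, adjusted p 0.0301). Crem, a transcription factor of the cyclic AMP response (−0.59), Nfkbia, the inhibitor of NF-kappaB (−0.76), and Irf2bp2, a transcriptional corepressor (−0.68), fell as well. With a heart left out in turn, the call was lost in 9 of 14 fits for Nr4a2, 11 for Sik1, 12 for Crem, 11 for Nfkbia and 4 for Irf2bp2. Crem and Irf2bp2 have transcripts on the opposite strand and are uncertain.

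Noct, a phosphatase of NADPH whose RNA follows the day and responds quickly to stimuli, had the smallest adjusted p of all falls. It was at 43.6, 49.4 and 59.7 CPM in sham and 23.2, 30 and 41.3 CPM in TAC hearts, with no overlap (log2 −0.69, SE 0.08, adjusted p 0.00191). It was the 1 call among 25 clock genes. Slc25a25, a mitochondrial ATP and phosphate carrier (−0.84), and Slc5a3, the inositol transporter (−1.35), fell too. Slc5a3 shares exons with Mrps6 on the same strand and Slc25a25 has Naif1 on the opposite strand, so both are uncertain. Leaving out a heart ended the call of Slc25a25 in 6 and of Slc5a3 in 5 of 14 fits, and that of Noct in none.

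Nle1, a factor of ribosome assembly, was at 12.7, 26.6 and 48.9 CPM in sham and 8.01, 10.6 and 12.0 CPM in TAC hearts (log2 −1.42, SE 0.20, adjusted p 0.00828). Fndc8, on the opposite strand at a lower count, fell by 2.04, and the reads of this pair cannot be told apart without the strand setting. Of 39 ribosome biogenesis genes, a list made after the calls were seen, 2 rose, Rrp12 (0.79) and Dhx37 (0.46), and Nle1 alone fell (median 0.05). The remaining large falls were the FOXO target Depp1 (−0.88), the acetyltransferase subunit Naa16 (−0.86), the death effector protein Dedd2 (−0.83, uncertain because 4933430L12Rik lies opposite), the actin-binding protein Enc1 (−0.82) and Gm15542, a processed pseudogene whose reads may belong to another gene (−1.15). Runx3, a transcription factor of lymphocytes and neurons, fell by 1.19 at 2.05 to 3.78 CPM in sham and 0.741 to 1.73 CPM in TAC hearts. With a heart left out in turn, the call was lost in 11 of 14 fits for Enc1, 7 for Dedd2 and 6 for Naa16. It was lost in 4 for Runx3, in 3 each for Depp1 and Fndc8, and in none for Nle1 and Gm15542. Lrp2 (−4.48) and Cgn (−3.22), genes of epithelia, fell from low levels: Lrp2 ran from 0.0 to 12.2 CPM in sham and from 0.0 to 0.288 CPM in TAC hearts. Both genes were highest in PBS_sham 2, at 12.2 and 2.94 CPM, the heart that also had the largest sum of mesothelial markers (316.8 CPM, against 4.33 to 36.3 CPM in TAC hearts); the part of such cells in these falls was not tested.

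Genes of fuel use did not pass the test. Cpt1a, the enzyme that lets long-chain fatty acids into the mitochondrion and the gene the vector carries, was at 37.4, 67.4 and 88.4 CPM in sham and 40.3, 57.1 and 62.7 CPM in TAC hearts. The difference was −0.21 (SE 0.15, 95% interval −0.54 to 0.12, adjusted p 0.526), and whether transgene reads count towards Cpt1a is not given in the sources used here. No gene was called among 35 of fatty acid oxidation (median 0.05), 30 of glucose use (0.14), 40 of the respiratory chain (0.08) or 23 of ketone and amino acid catabolism (0.02). With saline and with vector, the list medians were 0.30 and −0.17 for fatty acid oxidation and 0.33 and 0.02 for glucose use. They were 0.26 and −0.045 for the respiratory chain and 0.27 and −0.16 for ketone and amino acid catabolism. This gap between arms was not tested by list. The lowest sham heart summed to 11430 CPM for fatty acid oxidation (sham median 23390) and 15490 CPM for the respiratory chain (31820). The lowest TAC hearts were at 20620 and 28580 CPM. Heart muscle markers were lowest in PBS_sham 3, 1 of the 3 saline sham hearts, at 29810 CPM against 51190 to 57920 CPM in the other sham hearts. The part of that heart in the saline medians was not tested. The smallest adjusted p in these 4 lists was 0.0817, in glucose use. Bdh1, which interconverts the ketone bodies, was at 13.5 to 180 CPM in sham and 158 to 372 CPM in TAC hearts (log2 1.36, SE 0.35, adjusted p 0.0856). Likewise no call was made among 27 cardiac transcription factors, 25 cell cycle genes (median 0.29) and 25 genes of adrenergic and natriuretic signalling. In all, the 18 lists held 523 distinct tested genes, of which 19 were called, and 118 of the 137 called genes were in no list.

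**Figure D2:**
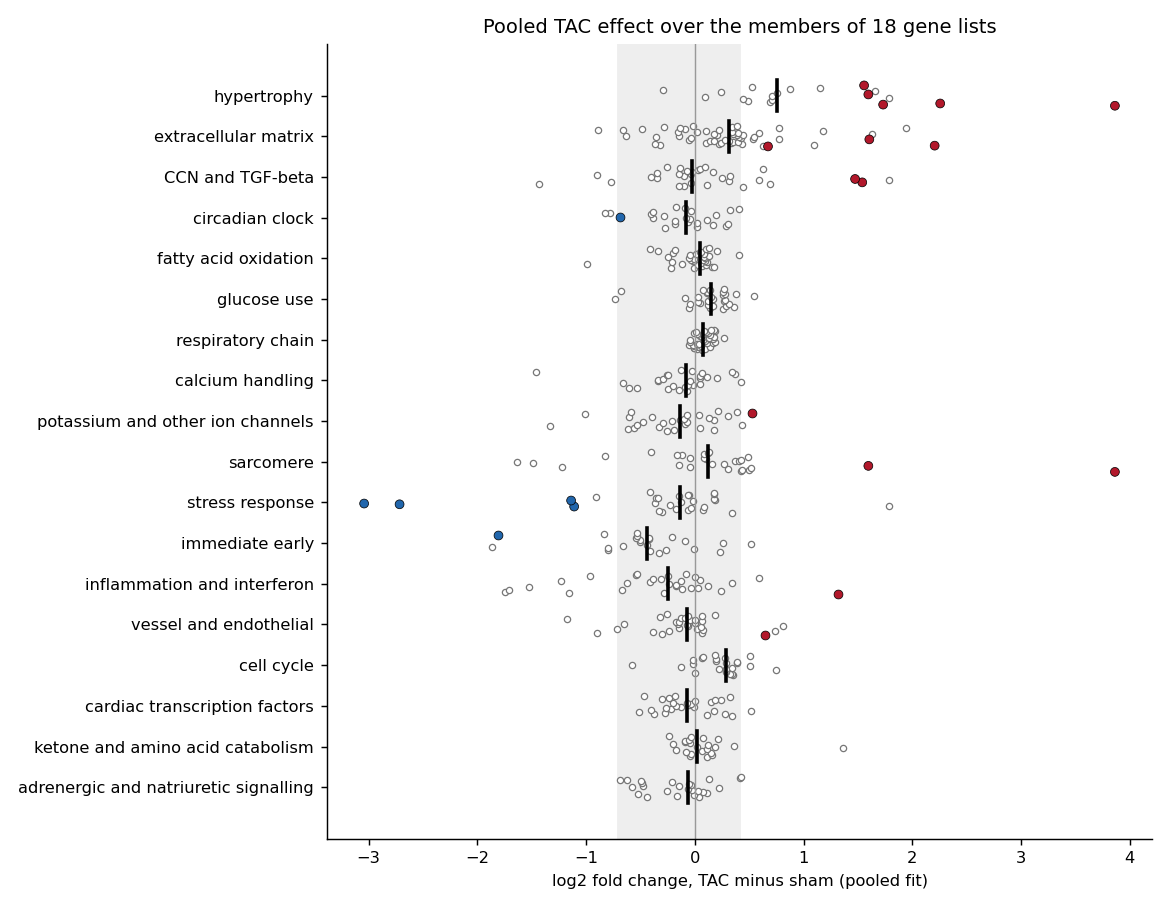
Log2 difference of TAC against sham for each tested gene of 18 gene lists, 1 point per gene; filled points were called, the black bar is the list's median and the grey band spans the 5th to the 95th percentile of all genes tested (−0.70 to 0.42). The hypertrophy list sits furthest right (median 0.76) and the immediate early list furthest left (median −0.44).

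The floxed control hearts of the series are separate animals, labelled CPT1a floxed, with 4 hearts after sham (FF_sham) and 4 after TAC (FF_TAC). FF_TAC 2 and FF_TAC 3 stand apart with little haemoglobin RNA and high immediate early genes, so values are given with and without both. Of the 78 genes that rose in the AAV9 cohort, 74 (94.9%) had a positive difference in the floxed controls, against 50.9% of 15743 genes. Without FF_TAC 2 and FF_TAC 3 it was 72 of 78. Of the 59 that fell, 28 (47.5%) had a negative difference, against 49.1% of all genes, and 31 without those 2 hearts. The median over the genes that rose was 0.83 in the floxed controls and 0.46 without both hearts, and over the genes that fell it was 0.05 and −0.03. The rises thus had the same sign in almost all cases and the falls in about as many as genes in general. Across genes the pooled and the floxed differences had a Pearson r of 0.30 and a Spearman rho of 0.32, where genes are not independent replicates.

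**Figure D3:**
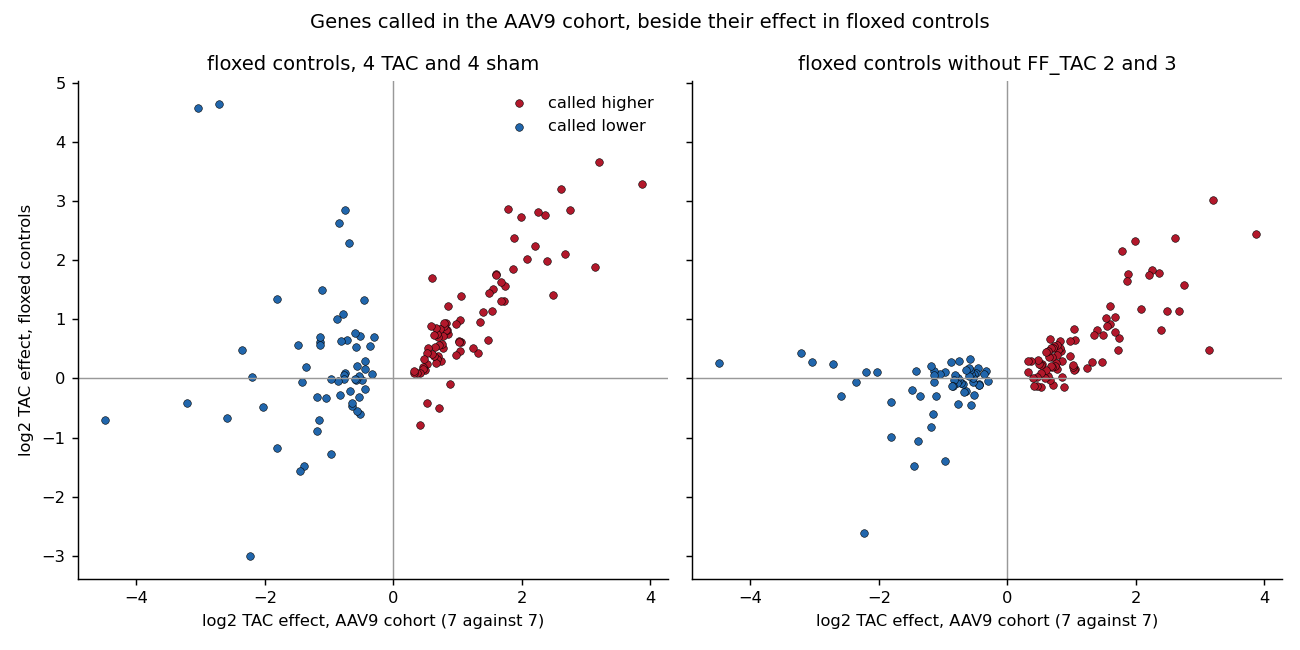
Log2 TAC difference of the 137 called genes in the AAV9 cohort (horizontal axis) and in the floxed controls (vertical axis), 1 point per gene, with all floxed hearts and without FF_TAC 2 and FF_TAC 3. Of the 78 genes that rose 74 lie above 0 on the vertical axis, and of the 59 that fell 28 lie below it.

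Sham hearts of the cohorts differed in chaperone levels. On a common scaling of all 30 libraries, Hspa1a was at 1.81, 2.42, 1.04 and 2.76 CPM in FF_sham 1 to 4. It was at 76.0, 211 and 66.5 CPM in PBS_sham and 36.2, 131, 207 and 104 CPM in AAV_sham. In FF_TAC it was at 1.74, 28.9, 170 and 3.01 CPM, where the high hearts are FF_TAC 2 and FF_TAC 3. The TAC hearts of the AAV9 cohort, at 3.06 to 34.7 CPM, were closer to the floxed sham hearts than the sham hearts of their own cohort were. Dnaja1 was at 55.5 to 70.5 CPM in FF_sham, at 200 to 357 CPM in the sham hearts of the AAV9 cohort and at 72.6 to 152 CPM in its TAC hearts. Hsph1 was at 33.5 to 60.1 CPM in FF_sham, 120 to 321 CPM in the cohort's sham hearts and 55.9 to 120 CPM in its TAC hearts. The cohorts differ in genotype and in whether mice were injected, and these cannot be told apart from other differences between them.

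**Figure D4:**
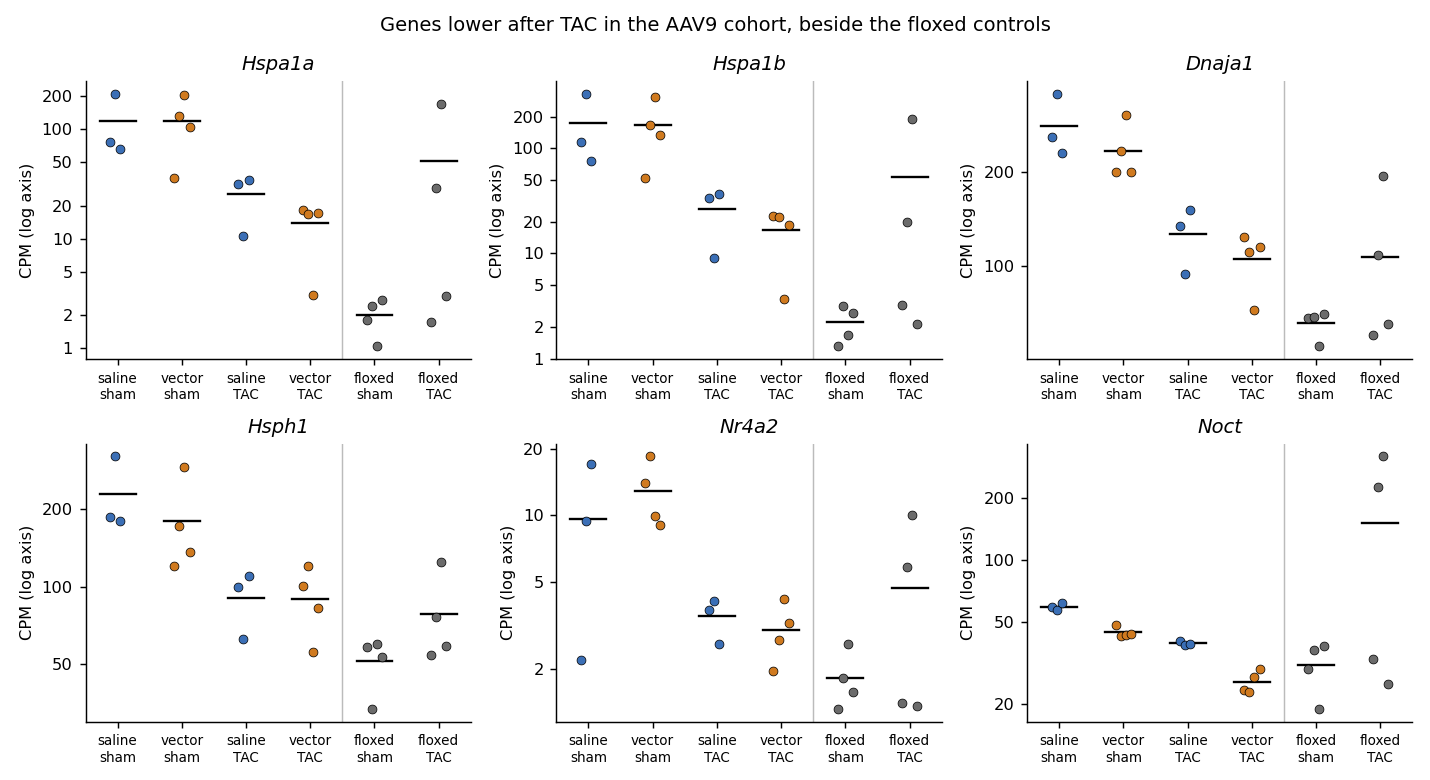
Level of 6 genes that fell with TAC in the AAV9 cohort, 1 point per heart on a log axis in CPM scaled over all 30 libraries, with the floxed control hearts beside them; the bar is the group mean. Hspa1a is at 1.04 to 2.76 CPM in FF_sham and 36.2 to 211 CPM in the sham hearts of the AAV9 cohort.

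A test of the difference between the pooled TAC effect and that of the floxed controls called no gene of 16583 (0.0%) in edgeR, with 1464 at an unadjusted p under 0.05. DESeq2 called 191 and limma voom with quality weights 6. The smallest adjusted p was 0.0651, a value shared by several genes, among them Chordc1 (−0.90), Nfkbia (−3.67), Noct (−2.98) and Slc25a25 (−3.48). Hspa1a had a difference of −7.31 (adjusted p 0.0695), which was −2.89 without FF_TAC 2 and FF_TAC 3 (adjusted p 0.989). It passed the threshold with DESeq2, with no filter on low counts, and without FF_TAC 1 or FF_TAC 4, and was −5.13 and not called without FF_TAC 3.

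The TAC effect was also taken within each injection, as contrasts in 1 fit of the 4 groups, which called 5 genes (0.0318%) with saline and 1 (0.00635%), Noct, with vector. In fits of 2 groups alone, 0 were called with saline and 143 with vector. Unadjusted, 2908 and 1110 genes were under 0.05. Over all genes tested, 58.7% had the same sign in both arms, at a Pearson r of 0.39 and a Spearman rho of 0.26 across genes. Acta1 was 4.25 with saline and 3.58 with vector, Ccn5 1.98 and 1.21, and Hspa1b −2.72 and −3.29 (log2, no difference between arms called). The test of the difference between arms called 1 gene of 15745 (0.00635%), with 1094 at an unadjusted p under 0.05.

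That gene was Arntl (BMAL1), a core activator of the circadian clock, whose pooled difference was −0.27 (adjusted p 0.739). With saline it was at 8.93, 12.1 and 7.34 CPM in sham and at 3.45, 2.42 and 2.17 CPM in TAC hearts. With vector it was at 9.08, 12.3, 10.0 and 7.45 CPM in sham and at 15.7, 19.8, 15.8 and 12.8 CPM in TAC hearts. TAC hearts were thus all below the sham hearts with saline and all above them with vector, and the difference between arms was 2.54 (SE 0.32, adjusted p 0.0299). With a heart left out, the call was made in 4 of 14 fits, and Gm45355 lies opposite, so the count is uncertain. Dbp, an output gene of the clock that peaks when Arntl is low, went the other way without passing the test. It was at 78.8, 58.4 and 80.9 CPM in PBS_sham and 141, 165 and 141 CPM in PBS_TAC, and at 84.0, 81.6, 83.9 and 118 CPM in AAV_sham and 59.0, 41.3, 63.0 and 82.6 CPM in AAV_TAC (−1.61, SE 0.30, adjusted p 0.321). The hour at which each heart was taken was not given in the sources used here, and its part in these values was not tested. Noct, itself on the clock list, had negative differences in both arms (−0.56 with saline and −0.79 with vector).

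**Figure D5:**
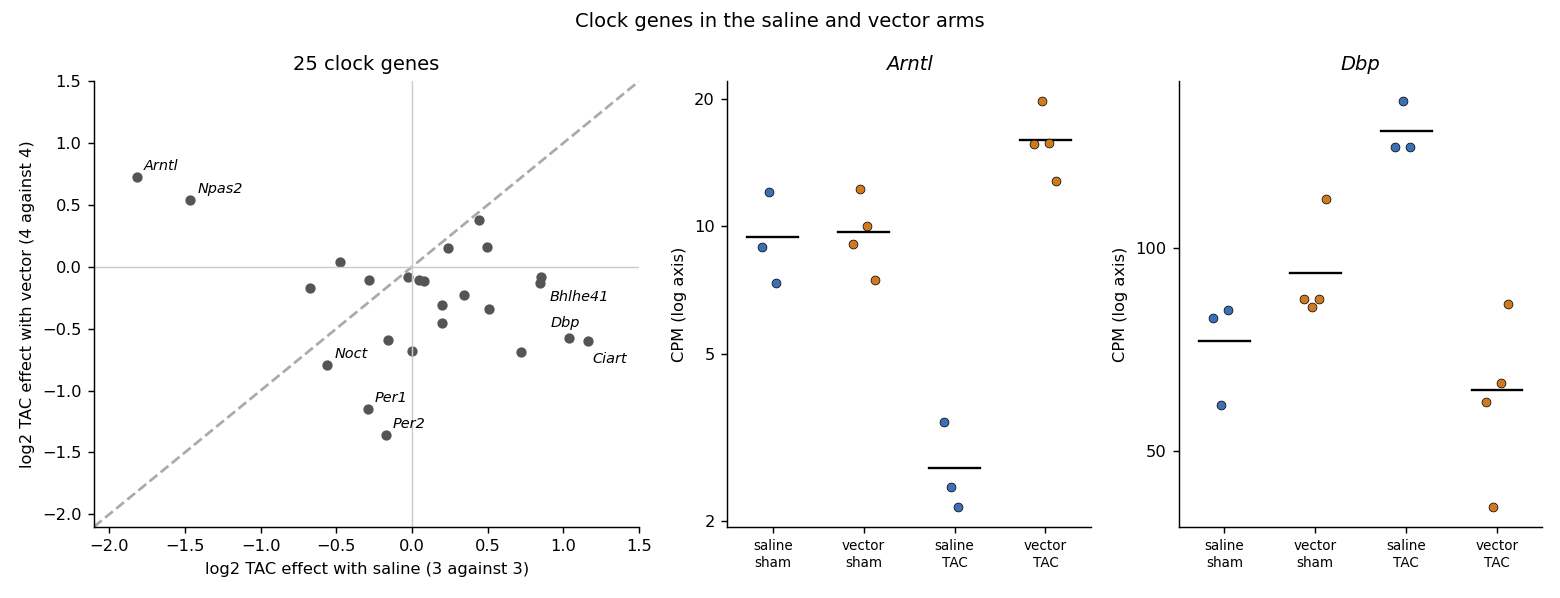
Left, log2 TAC difference of 25 clock genes with saline (horizontal axis) against vector (vertical axis), 1 point per gene; right, Arntl and Dbp in CPM, 1 point per heart by group, with the group mean as a bar. Arntl is at 2.17 to 3.45 CPM in PBS_TAC and 12.8 to 19.8 CPM in AAV_TAC, and Dbp at 141 to 165 CPM and 41.3 to 82.6 CPM.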

How the data were processed

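Poly(A) RNA of 14 hearts was analysed, with 8 floxed control hearts for comparison. The deposited values are raw counts per gene, for which the submitters' processing notes name HISAT2 2.1.0, featureCounts, Subread 1.5.1 and GRCm38. The strand setting and the annotation release are not given in the sources used here. Symbols and coordinates are from GENCODE M21 (GRCm38), and promoter windows from RefSeq (GRCm38.p6), matched for 58 of 78 genes that rose, 41 of 59 that fell and 11168 of 15740 tested symbols.

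Counts were fitted in edgeR 4.0.16 (R 4.3.3, quasi-likelihood F test) with TMM scaling and filterByExpr on 4 groups, with terms for injection and surgery. Groups came from the titles. Intervals are at 95%. Cohort and arm differences were contrasts of group means, the first over all 30 libraries. Alternatives used DESeq2 1.42.0, limma 3.58.1, RLE scaling, other filters and terms, and each library left out. Every limma voom fit used quality weights, which give outlying libraries less weight. No libraries were duplicates: within groups chi-square per degree of freedom was 6.29 to 234 over 18 pairs. The script was tested on simulated data.

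The genes named are the 15 largest rises and 15 largest falls among called genes with the same sign in both arms and an average of 5 CPM or more in TAC or sham hearts, up to 6 called members of each list, and Cpt1a. One called list member is not reported here. Others were chosen after their values were seen. The comparison and the lists were chosen with earlier results of these data known.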

Additional observations from a re-analysis of the deposited data

Results flagged for a closer look

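Among the 38 genes described in full, the 7 sham and the 7 TAC hearts were examined for a single heart far from the others by Dixon's criterion. There were 76 groups in all, of which 8 held one. For normally distributed values, chance marks about 1 in 20 groups. These were untransformed CPM of genes from the same hearts, so the 8 cannot be weighed against that rate. AAV_sham 2 stood out in 3 genes that rose with TAC: it had 924 CPM of Acta1 (sham median 163), 4.66 CPM of Edn3 (1.58) and 9.26 CPM of Nlrc3 (2.75), in each the highest of the sham hearts. AAV_TAC 2 was the highest TAC heart in Edn3 at 23.9 CPM (median 10.3), Aqp8 at 29.7 CPM (14) and Xirp2 at 2430 CPM (1360). Without AAV_sham 2 the Acta1 difference was 4.53, and without AAV_TAC 2 it was 3.54. Slc5a3, which fell, was highest in PBS_sham 2 at 21.8 CPM (sham median 9.88), and Naa16 in PBS_sham 3 at 30.2 CPM (13.9). The TAC effect on Arntl differed between vector and saline by 2.54 on the log2 scale, with every vector TAC heart higher and every saline TAC heart lower than the sham hearts of its injection.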

How the results depend on the processing

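The 137 calls became 601 with DESeq2, 721 with limma voom, 227 with no filter beyond 1 count, 3 with the atrial covariate and, in settings added after seeing the data, 0 among libraries with Myl7 above 100 CPM (225 at an unadjusted p under 0.05) and 457 without PBS_sham 2 and PBS_sham 3. Leaving out each library gave 16 to 795. RLE scaling gave 139. Calls that rose were 56.9% of the total and 46.9% with DESeq2. The 1 call for the difference between vector and saline became 16 with DESeq2, 13 with voom, 5 without the filter, and 0 to 1 with a library left out. The 0 calls between the cohorts became 191, 6 and 94, and 0 to 215 with a library left out (215 without FF_TAC 1, 203 without FF_TAC 4, 1 without PBS_sham 1). The 5 saline calls became 370 with DESeq2, 0 in a fit of both groups alone and 0 to 1796 with a library left out (1796 without PBS_sham 1). The 1 vector call became 117, 143 and 0 to 2, and 338 among libraries with Myl7 at or under 100 CPM (added after seeing the data). The 19 list genes called became 56 with DESeq2, 74 with voom, 32 without the filter, 1 with the atrial covariate, 0 with Myl7 above 100 CPM, 63 without PBS_sham 2 and PBS_sham 3, and 5 to 77 with a library left out. Of the 30 genes named by rank, 8 were called in all 14 such fits (Acta1, Aqp8, Col8a1, Ccn5, Ackr4, Nle1, Gm15542 and Dnaja1), and none changed sign; Hspa1b was called in 12, Hspa1a in 11, Dnajb1 in 4 and Hsph1 in 3. DESeq2 and voom called all 30. The sign of Cpt1a turned in 1 setting, to 0.00836 with Myl7 above 100 CPM. The cause of these shifts was not tested.

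Replicate numbers recur in the labels, and the 7 same-numbered pairs deviated together only in part (r from −0.24 to 0.29, 3 over 0.1). Pairs of unlike number within an arm had r from −0.40 to 0.29. With so few hearts in a group, these values cannot decide whether a shared number marks a pair. With a replicate block the calls were 74, those between vector and saline 0, and 17 of the 30 genes were called. Folds of transcripts at a few CPM rest on few reads, and intervals and counts of 0 cover these libraries only.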
